A study of Homo sapiens with 3 samples.

Results

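The DNA replication machinery was described here through 46 genes that load the replicative helicase at origins, activate it, synthesise DNA and protect the fork. The genes were listed by name and role, and their probes were found by matching the RefSeq accession on the array, without its version, to gene symbols. All 46 had a probe, out of 19699 genes named on the array, and they were covered by 58 of the 34041 probes used. The rule that names them uses no measured value, but the list was chosen with earlier results of these data known.

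PANC-1, an established human pancreatic ductal carcinoma line kept in growing culture, was treated for 24 h with cantharidin (CAN) or with okadaic acid (OA). Both agents inhibit serine/threonine protein phosphatases, PP2A among them. The sample labels give 20 µM for each agent, while the treatment text leaves the dose of okadaic acid open, and no vehicle is named for the untreated control. Total RNA from 1 control, 1 cantharidin and 1 okadaic acid sample was hybridised to 3 Agilent 1-colour arrays, so every value below rests on a single array of a single cell line, without a test or an error between cultures.

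Replication starts when the origin recognition complex, with CDC6 and CDT1, loads the ring-shaped MCM2-7 helicase onto DNA in G1, a step that geminin blocks once S phase has begun. The kinase CDC7 with its partner DBF4 then allows CDC45 and the GINS complex to join MCM2-7, which makes the active helicase. DNA polymerase alpha-primase lays down primers, polymerases epsilon and delta extend them on the clamp PCNA, and many of these genes are transcribed in proliferating cells under E2F factors. The RNA came from whole cultures, so fewer cells in S phase and less transcript per cell cannot be told apart.

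Array signal is given as the processed spot intensity, and differences are on the log2 scale, each array having been divided by its own 75th percentile (control 784 intensity units, cantharidin 713, okadaic acid 936). A gene was compared if either of the arrays set against each other measured its probe well above background, and differences of at least 1.5-fold (0.58 on the log2 scale) are called lower or higher. The lowest signal well above background was 35.0 units in control, 21.9 under cantharidin and 58.0 under okadaic acid. Among probes printed in many spots, the median SD between spots was 0.06, 0.09 and 0.07 log2 units on these arrays, which is a technical spread only. All arrays shared a slide and a scan, and position on the slide cannot be told apart from the group. The 5 epithelial markers KRT7, KRT8, KRT18, KRT19 and EPCAM were well above background on every array. So were the 3 immune markers PTPRC, CD3E and CD14, at 259 to 2535 units in control, 223 to 1838 under cantharidin and 390 to 11044 under okadaic acid. CDH5 of 2 endothelial markers and DCN of 3 stromal markers were also measured on every array, whereas PECAM1 and LUM were on none. The third stromal marker, COL1A1, gave 528 units in control and was not well above background in the treated samples, so it was lower by at least 21.9-fold with cantharidin and 10.9-fold with okadaic acid. EPCAM was also lower under each agent (-1.77 and -1.14), and CD14 was higher under okadaic acid (1.87). The part of these markers in the results was not tested.

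Most of the replication genes gave a lower signal under cantharidin. Of 45 members compared, 34 were at least 1.5-fold lower and 3 were higher (GINS3, RFC1 and TIPIN), with a median log2 difference of -1.58. Over all 16644 genes compared, 34.1% were lower and 27.5% higher, with a median of -0.16. The treated signal was measured for 31 of the 34 lower members, and the other 3 (DBF4, MCM10 and POLE2) were not well above background under cantharidin. The 8 members within 1.5-fold were ORC2, ORC4, ORC6, CDC6, POLA1, RFC2, FEN1 and RPA2.

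Under okadaic acid fewer members were lower. Of 45 compared, 24 had a signal at least 1.5-fold lower, 3 were higher (ORC4, GINS3 and TIPIN) and 18 lay within 1.5-fold, with a median of -0.67. The 24 include MCM10, whose treated signal was dim and whose bound of 1.08-fold does not reach 1.5-fold, and with dim signals at the array floor 23 were lower. Over all 16166 genes compared, 28.8% were lower and 28.1% higher, with a median of 0.01. Without scaling, the split of the members was 21 lower and 6 higher, and that of all genes 22.4% and 36.6%. Under median scaling, 32.4% of all genes were lower and 24.8% higher. DBF4 and POLE2 were likewise not well above background on the treated array.

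Both comparisons use the same control array, so the calls are given side by side and not as separate evidence. Lower under each agent were 23 members, with MCM10 among them although its okadaic acid bound is under 1.5-fold. A further 11 were lower under cantharidin and within 1.5-fold of control under okadaic acid, and 6 were within 1.5-fold under each. How many of all genes fall in each of these patterns was not counted, so the counts only describe the members. CLSPN, the checkpoint mediator claspin, did not exceed background clearly on any of the arrays and was not compared. In a list of 12 reference (housekeeping) genes, 6 were lower and 1 higher under cantharidin (median -0.51), and 7 were lower and 1 higher under okadaic acid (median -0.65). Beside these, the medians of the members were -1.58 and -0.67, so the distance to the reference genes was wide under cantharidin and narrow under okadaic acid.

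**Figure D1:**
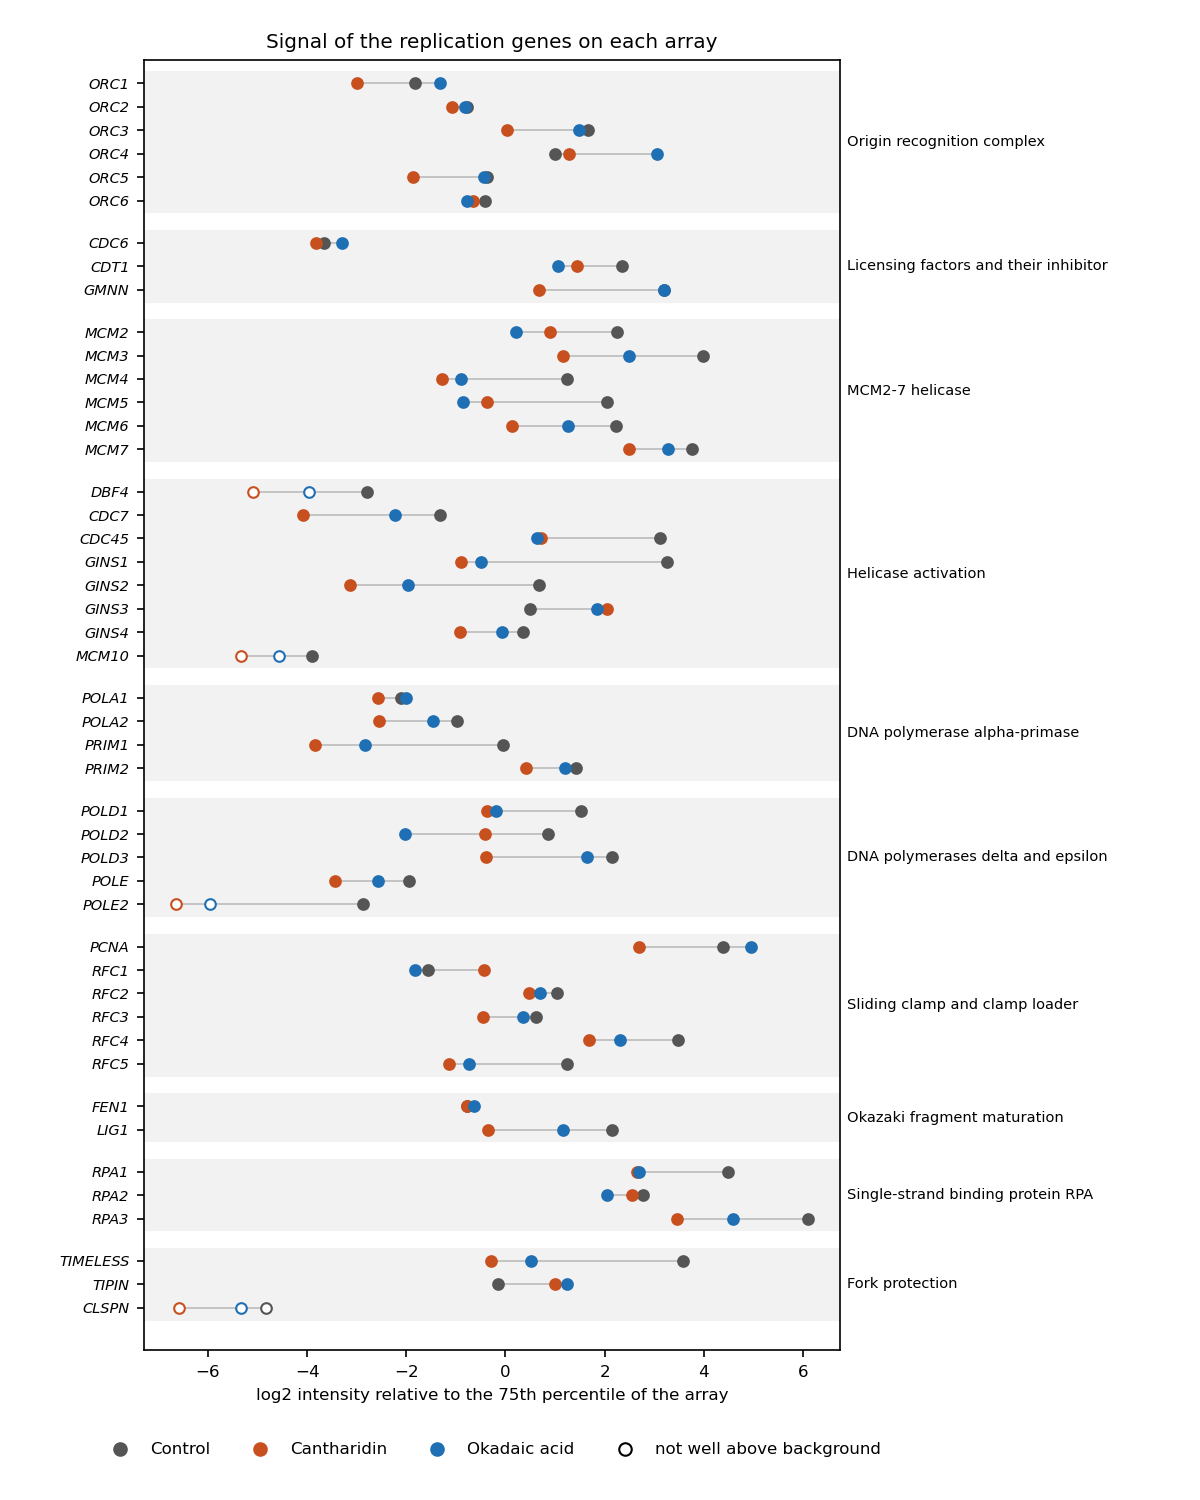
Signal of the 46 replication genes on the 3 arrays, as log2 intensity relative to the 75th percentile of the array on the x axis, with genes grouped by role. Each circle is a single array (open where not well above background), and the cantharidin circle lies left of the control circle for most genes, with GINS3, RFC1 and TIPIN as the members called higher.

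**Figure D2:**
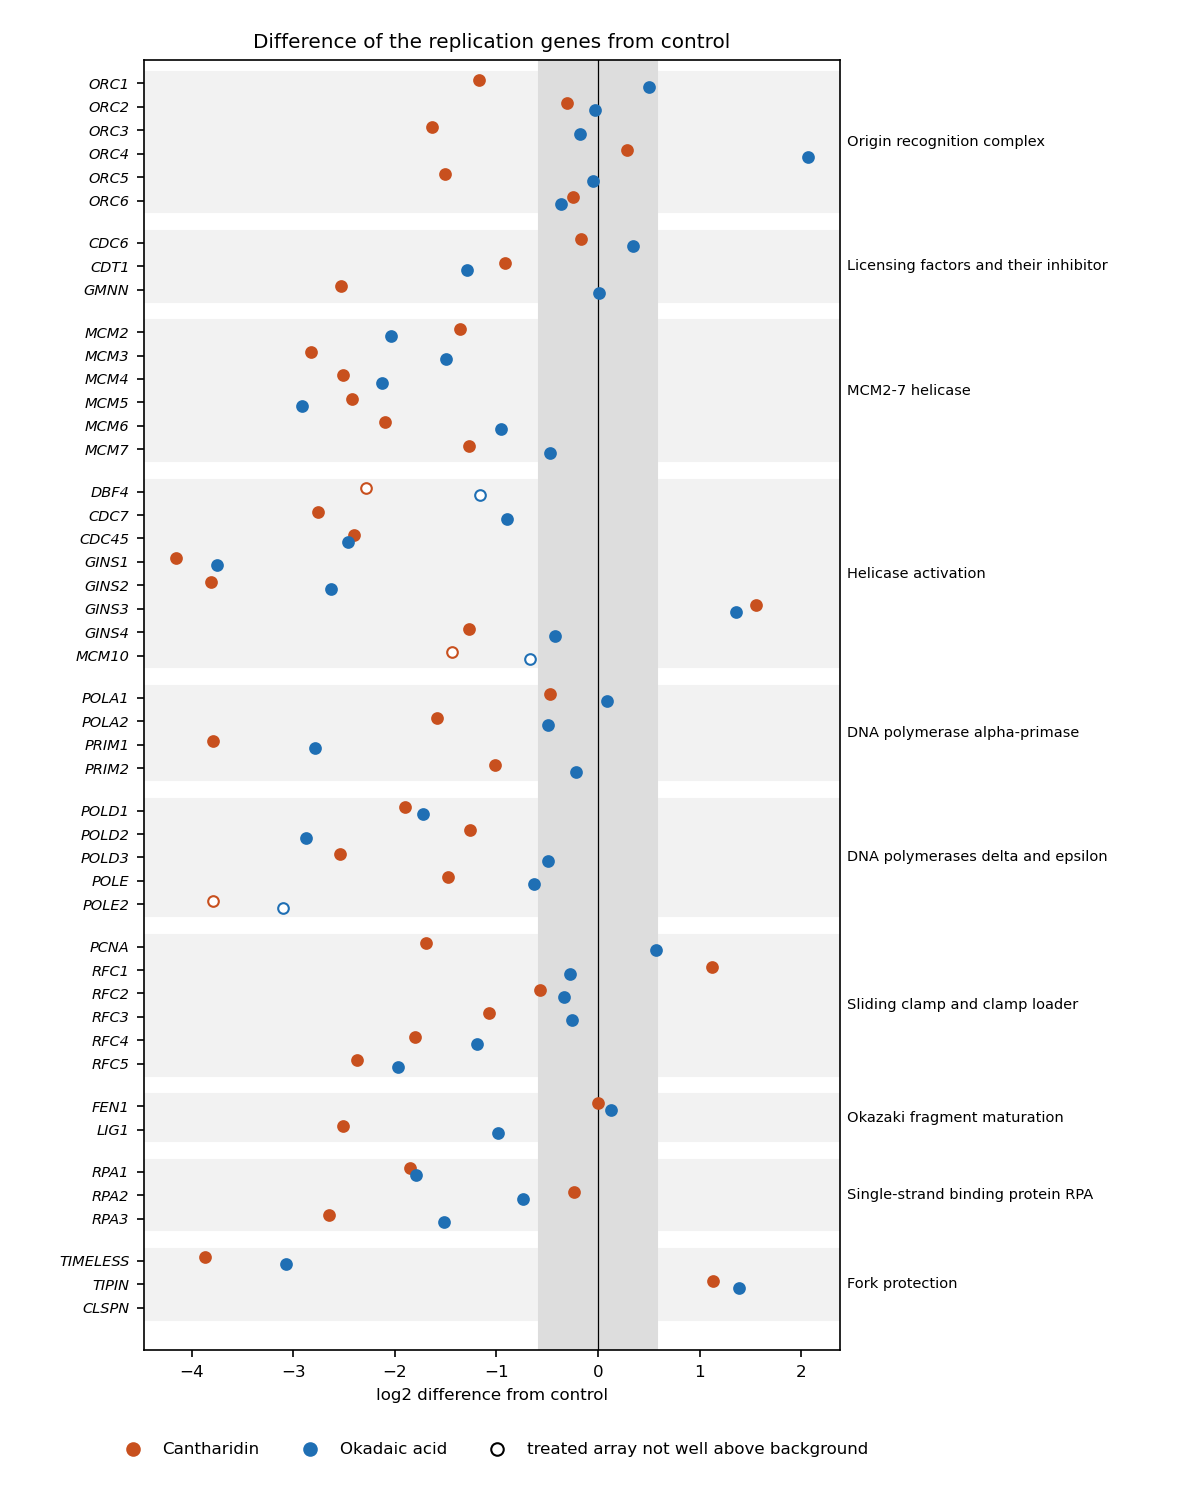
Log2 difference of each replication gene from control under cantharidin and okadaic acid, by role, with the band of 1.5-fold either way shaded. The MCM2-7 genes lie left of the band except MCM7 under okadaic acid, while origin recognition genes lie inside or right of it under okadaic acid, and CLSPN has no point because it was not compared.

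Promoter sequences are shown for the ends of this range, since members that moved most and least can then be set beside each other. They come from the RefSeq table for GRCh38.p14, cover 250 bases before to 50 bases after the annotated start, and read 5′ to 3′ along the gene. Capitals mark the letters of an E2F site (TTTCCCGC, TTTCGCGC, TTTGCCGC or TTTGGCGC) or of a CCAAT box, the motif of NF-Y, on either strand. The first set holds the 4 members, of those measured on every array with a promoter in the table, for which the smaller of the 2 differences from control was furthest below it (-2.63 or lower): GINS1 at chr20:25407423-25407722 on the plus strand, TIMELESS at chr12:56449377-56449676 on the minus strand, PRIM1 at chr12:56752274-56752573 on the minus strand and GINS2 at chr16:85688905-85689204 on the minus strand.
GINS1: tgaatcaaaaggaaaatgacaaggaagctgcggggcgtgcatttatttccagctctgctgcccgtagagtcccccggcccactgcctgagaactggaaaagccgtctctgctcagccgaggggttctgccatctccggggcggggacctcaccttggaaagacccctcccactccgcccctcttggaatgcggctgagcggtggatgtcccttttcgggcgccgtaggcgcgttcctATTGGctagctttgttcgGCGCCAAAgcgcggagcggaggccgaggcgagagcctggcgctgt
TIMELESS: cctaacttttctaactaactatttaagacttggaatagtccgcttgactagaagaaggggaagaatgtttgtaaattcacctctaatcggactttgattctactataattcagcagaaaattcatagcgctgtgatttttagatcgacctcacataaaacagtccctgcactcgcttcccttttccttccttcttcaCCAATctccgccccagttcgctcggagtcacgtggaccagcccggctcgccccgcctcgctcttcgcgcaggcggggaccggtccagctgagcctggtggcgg
PRIM1: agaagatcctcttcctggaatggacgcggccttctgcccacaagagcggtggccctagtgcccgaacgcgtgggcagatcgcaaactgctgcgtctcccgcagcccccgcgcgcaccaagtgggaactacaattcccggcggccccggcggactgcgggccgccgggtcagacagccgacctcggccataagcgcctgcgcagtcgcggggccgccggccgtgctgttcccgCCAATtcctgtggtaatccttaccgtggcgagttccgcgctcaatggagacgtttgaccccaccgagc
GINS2: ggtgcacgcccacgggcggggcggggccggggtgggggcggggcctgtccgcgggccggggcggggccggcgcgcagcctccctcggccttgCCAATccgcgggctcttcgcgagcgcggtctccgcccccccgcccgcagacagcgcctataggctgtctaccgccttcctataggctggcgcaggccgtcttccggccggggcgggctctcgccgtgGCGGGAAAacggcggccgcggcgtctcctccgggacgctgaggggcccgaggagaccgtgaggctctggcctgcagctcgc
The second set holds the 4 members whose larger absolute difference of the 2 agents was smallest (0.36 or less, although ORC6 reached -0.58 with the median over spots): FEN1 at chr11:61792661-61792960 on the plus strand, ORC2 at chr2:200963611-200963910 on the minus strand, CDC6 at chr17:40287629-40287928 on the plus strand and ORC6 at chr16:46689409-46689708 on the plus strand.
FEN1: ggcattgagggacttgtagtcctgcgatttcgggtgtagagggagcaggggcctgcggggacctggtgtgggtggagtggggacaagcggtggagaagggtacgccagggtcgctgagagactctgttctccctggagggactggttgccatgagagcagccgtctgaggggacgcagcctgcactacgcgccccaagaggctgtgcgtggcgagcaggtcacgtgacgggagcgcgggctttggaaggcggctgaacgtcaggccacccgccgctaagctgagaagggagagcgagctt
ORC2: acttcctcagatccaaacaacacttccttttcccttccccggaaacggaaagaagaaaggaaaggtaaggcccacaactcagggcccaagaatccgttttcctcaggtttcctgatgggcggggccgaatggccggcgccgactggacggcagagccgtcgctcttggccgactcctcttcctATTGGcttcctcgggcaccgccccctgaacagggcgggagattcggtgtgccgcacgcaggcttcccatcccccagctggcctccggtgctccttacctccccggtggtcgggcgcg
CDC6: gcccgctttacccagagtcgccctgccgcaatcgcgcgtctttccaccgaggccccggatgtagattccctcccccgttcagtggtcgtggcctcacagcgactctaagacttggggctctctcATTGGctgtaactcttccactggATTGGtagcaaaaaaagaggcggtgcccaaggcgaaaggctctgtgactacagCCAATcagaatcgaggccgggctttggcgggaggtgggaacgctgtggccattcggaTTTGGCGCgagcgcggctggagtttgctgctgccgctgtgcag
ORC6: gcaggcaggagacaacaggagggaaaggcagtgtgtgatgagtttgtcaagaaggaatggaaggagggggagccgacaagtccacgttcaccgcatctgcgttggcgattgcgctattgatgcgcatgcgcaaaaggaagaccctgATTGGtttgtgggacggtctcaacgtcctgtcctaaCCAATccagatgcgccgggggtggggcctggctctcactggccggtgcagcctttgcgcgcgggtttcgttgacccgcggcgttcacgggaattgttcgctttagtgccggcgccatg

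Both sets held these letters. All 4 promoters of the first set had a CCAAT box, and GINS1 and GINS2 had an E2F site as well, starting at positions 6 and -31 from the annotated start (position 1). In the second set ORC2 had 1 CCAAT box, ORC6 had 2, CDC6 had 3 with an E2F site, and FEN1 had none of the motifs searched. The CDC6 signal was only 1.63 to 2.30 times the lowest measured on each array, so its small difference is uncertain.

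Promoters were found for 40 of the 46 members, and MCM4, MCM5, GINS4, POLD3, RPA2 and RPA3 were not matched in the table. The E2F letters occurred in 18 of the 40 (45.0%), against 3.33% of all 27305 promoters of this length. CCAAT occurred in 57.5% of them against 35.7%, and the Sp1 letters GGGCGG, counted on both strands with overlaps, in 72.5% against 44.6%. TTTGAA, the core of the CHR element of cell cycle genes, was found in DBF4 alone, against 15.4% of all promoters. Among the members lower under cantharidin the E2F letters were in 14 of 29 promoters, and among those within 1.5-fold in 2 of 7. For okadaic acid these counts were 9 of 20, MCM10 included, and 7 of 16. A match describes letters in this window, and binding was not measured.

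The origin recognition complex, which marks origins, was divided under cantharidin and close to control under okadaic acid. Of its 6 subunits, 3 were lower under cantharidin and none was higher (median -0.74), while under okadaic acid 1 was higher and none lower (median -0.04). ORC1, the subunit whose abundance varies with the cell cycle, gave 222 units in control, 89.7 under cantharidin and 375 under okadaic acid, or 2.25-fold lower and 1.41-fold higher after scaling. ORC3 gave 2494, 730 and 2635 units, which was 3.10-fold lower under cantharidin and -0.18 on the log2 scale under okadaic acid. ORC5 gave 606, 194 and 698 units, with log2 differences of -1.50 and -0.05. Its second probe, at 154, 36.3 and 92.5 units, was lower under each agent, at -1.95 and -0.99.

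ORC4, an ATPase-fold subunit of the complex, was the member with the highest difference under okadaic acid. It gave 1558 units in control, 1726 under cantharidin and 7813 under okadaic acid, which was 4.20-fold higher with okadaic acid and 0.29 log2 units with cantharidin. ORC2, a core subunit, was within 1.5-fold under both agents, at 458, 336 and 535 units. ORC6, the smallest subunit, was also within 1.5-fold, at 586, 450 and 545 units. Its cantharidin value is uncertain, because 7 of 9 spots lay at 339 to 375 units and the remaining 2 at 1010 and 1113. The median over spots, a choice made after these spots were seen, moved its log2 difference from -0.24 to -0.58.

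The licensing factors CDC6 and CDT1 and their inhibitor geminin behaved differently from each other. GMNN, which encodes geminin, gave 7203 units in control, 1135 under cantharidin and 8641 under okadaic acid. It was thus 5.77-fold lower with cantharidin and level with control under okadaic acid (0.01 on the log2 scale). CDT1, which brings MCM2-7 to the origin, was lower under each agent at 3986, 1925 and 1949 units, with differences of -0.91 and -1.29. CDC6, the ATPase that acts with it, gave 62.4, 50.4 and 94.9 units, between 1.63 and 2.30 times the lowest signal measured on each array, with differences of -0.17 and 0.35.

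All 6 subunits of the MCM2-7 helicase, the motor of the fork, were lower under cantharidin (median -2.26), and 5 of 6 under okadaic acid (median -1.76). MCM3 gave 12421 units in control, 1597 under cantharidin and 5272 under okadaic acid, or 7.07-fold and 2.81-fold lower. MCM4 gave 1844, 295 and 505 units, or 5.68-fold and 4.36-fold lower. MCM6 gave 3660, 779 and 2252 units, or 4.27-fold and 1.94-fold lower. For these 3 subunits the okadaic acid array lay between cantharidin and control, although for MCM4 it was within 1.5-fold of cantharidin (0.38).

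MCM2 was lowest with okadaic acid instead (-0.68 from cantharidin). For MCM5 the agents were within 1.5-fold of each other, at -0.49 and, for its second probe, 0.02. MCM2 gave 3743, 1328 and 1088 units, with differences of -1.36 and -2.04. MCM5 gave 3246, 551 and 516 units, with differences of -2.42 and -2.91, and its second probe gave -2.15 and -2.13. MCM7 was the least changed subunit, at 10574, 3982 and 9116 units, with differences of -1.27 and -0.47. Its second probe, at 415, 195 and 276 units, passed 1.5-fold under each agent, at -0.96 and -0.85. The ring subunits are made in equal number in the loaded complex, but levels of different probes are not comparable here.

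Genes that turn the loaded ring into an active helicase included the lowest members of all. Of 8, 7 were lower under cantharidin (median -2.35) and 6 under okadaic acid (median -1.03), while GINS3 was higher under both. GINS1 gave 7507 units in control, 382 under cantharidin and 664 under okadaic acid, or 17.8-fold and 13.5-fold lower, the lowest log2 differences (-4.16 and -3.76) among the members. GINS2 gave 1252, 81.1 and 241 units, or 14.0-fold and 6.19-fold lower, and with normexp its cantharidin difference was -2.83 in place of -3.81. The promoters of these genes are among those printed above.

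GINS3 went the other way from its partners in the same 4-subunit complex. It gave 1105 units in control, 2943 under cantharidin and 3382 under okadaic acid, or 2.93-fold and 2.56-fold higher. GINS4, the remaining subunit, gave 1004, 377 and 894 units, with differences of -1.27 and -0.42. CDC45, the helicase cofactor that GINS joins, was about equally lower under both agents at 6778, 1165 and 1465 units, or 5.29-fold and 5.52-fold.

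The kinase pair was lower under each agent, and both genes were dim. CDC7, the catalytic subunit, gave 312 units in control, 42.1 under cantharidin and 200 under okadaic acid, with differences of -2.75 (-1.57 with normexp) and -0.90. DBF4, its activator, gave 112 units in control and was not well above background in the treated samples, so it was at least 4.67-fold lower with cantharidin and at least 2.23-fold lower with okadaic acid, although normexp gave -0.93 on the log2 scale for cantharidin. MCM10, a factor needed for helicase activation, gave 52.7 units in control and was not well above background on either treated array. It was at least 2.19-fold lower with cantharidin and at least 1.08-fold lower with okadaic acid, and with normexp neither call held (-0.40 and -0.48).

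**Figure D3:**
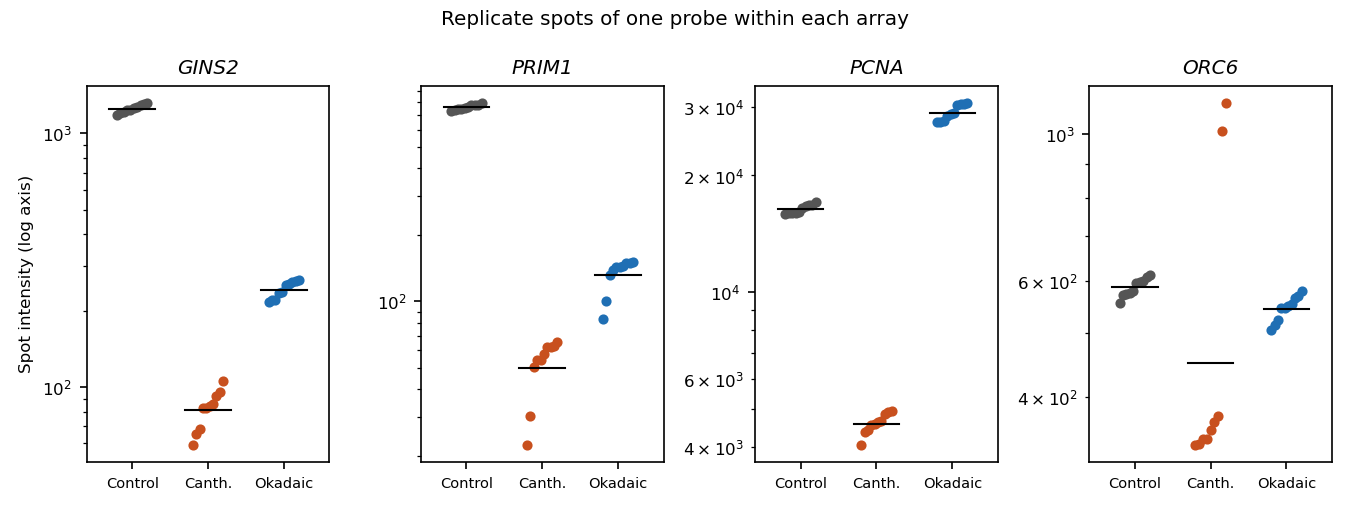
Spot intensities (log axis) of the 4 members whose probe was printed in many spots, with each point a spot and the bar the mean of log2 values, for each of the 3 arrays. Intensities are not scaled between arrays, and ORC6 has 2 cantharidin spots at 1010 and 1113 units, above the other 7.

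GINS2, PRIM1, PCNA and ORC6 had a probe printed in 10 spots, which gives the technical spread of their values. GINS2 spots lay between 1186 and 1317 units in control, 59.0 and 106 with cantharidin, and 217 and 263 with okadaic acid. PRIM1 spots lay between 731 and 791 units in control, 22.3 and 65.3 with cantharidin, and 83.5 and 151 with okadaic acid. The SD between PRIM1 spots was 0.52 log2 units under cantharidin, well above that in control (0.04), at a signal close to the lowest measured. Spot spread does not include the variation between cultures.

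DNA polymerase alpha-primase, which makes the RNA-DNA primers, had 3 of 4 subunits lower under cantharidin (median -1.30) and 1 of 4 under okadaic acid (median -0.35). PRIM1, the catalytic primase subunit, gave 758 units in control, 49.8 under cantharidin and 131 under okadaic acid, or 13.8-fold and 6.89-fold lower. With the normexp background correction its differences shrank from -3.79 and -2.78 to -2.49 and -2.07. POLA2, the regulatory B subunit, gave 399, 121 and 339 units, with differences of -1.58 and -0.49. POLA1, the catalytic polymerase subunit, was within 1.5-fold under both agents, at 183, 120 and 232 units. The primase genes therefore differed in how far they moved, and the call for PRIM2 depended on the probe.

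PRIM2, the large primase subunit, had 3 probes. The brightest gave 2112, 949 and 2165 units, with differences of -1.02 and -0.22. Another gave 654, 1380 and 680 units and was 2.32-fold higher under cantharidin, against the direction of the others. The third gave 529, 221 and 299 units and was lower under each agent, at -1.12 and -1.08.

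All 5 members from polymerases delta and epsilon were lower under cantharidin (median -1.90), and 4 of 5 under okadaic acid (median -1.72). These are the replicative polymerases of the lagging and leading strands. Their subunits POLD4, POLE3 and POLE4, from a further list given below, were within 1.5-fold under cantharidin (-0.25, 0.50 and 0.17). Under okadaic acid POLE3 was higher (1.21), while POLD4 and POLE4 were within 1.5-fold (-0.57 and -0.01). POLD1, the catalytic subunit of delta, gave 2259 units in control, 551 under cantharidin and 819 under okadaic acid, or 3.73-fold and 3.29-fold lower. POLD2, which holds the complex together, gave 1418, 539 and 231 units, or 2.39-fold and 7.34-fold lower. POLD3, which helps delta bind PCNA, showed the opposite order at 3460, 541 and 2931 units, 5.81-fold lower under cantharidin and -0.49 on the log2 scale under okadaic acid. Within polymerase delta, then, the agents were close for POLD1, okadaic acid was lower for POLD2 and cantharidin was lower for POLD3.

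The epsilon genes among the members were dim in control, unlike POLE3 and POLE4 (10525.3 and 11394.5 units). POLE, its catalytic subunit, gave 203, 66.1 and 157 units, with differences of -1.48 (-0.84 with normexp) and -0.63, the second just past 1.5-fold (1.54) and within it with normexp (-0.46). A second POLE probe gave 68.5 units in control and was not well above background in the treated samples, so it was at least 2.59-fold lower with cantharidin and at least 1.31-fold lower with okadaic acid. POLE2, the B subunit, gave 108 units in control and was not well above background in the treated samples. It was at least 4.47-fold lower with cantharidin and at least 2.22-fold lower with okadaic acid, while normexp gave -1.24 and -1.13 on the log2 scale.

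PCNA, the sliding clamp that tethers polymerases to DNA, was lower under cantharidin and not under okadaic acid. It gave 16393 units in control, 4595 under cantharidin and 29030 under okadaic acid, or 3.24-fold lower and 1.48-fold higher after scaling. Its spots lay between 15957 and 17143 units in control, 4042 and 4940 with cantharidin, and 27386 and 30711 with okadaic acid. A second probe gave -1.69 and 0.53, close to the first (-1.70 and 0.57). The okadaic acid difference lay just inside the 1.5-fold band and ranged from 0.45 to 0.82 over the settings tried, passing 1.5-fold in 5 of them.

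The clamp loader, replication factor C, opens PCNA and places it on primed DNA. RFC5 gave 1852, 325 and 566 units, or 5.17-fold and 3.91-fold lower. RFC4 gave 8807, 2299 and 4619 units, or 3.48-fold and 2.28-fold lower. RFC3 gave 1202, 520 and 1202 units, 2.10-fold lower under cantharidin and -0.26 on the log2 scale under okadaic acid. RFC2 lay within 1.5-fold under both agents at 1609, 987 and 1525 units, its cantharidin difference of -0.57 being just inside the band.

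RFC1, the large subunit of the loader, was the only RFC gene with a higher signal. It gave 267 units in control, 528 under cantharidin and 263 under okadaic acid, or 2.17-fold higher under cantharidin and -0.28 on the log2 scale under okadaic acid. In all, 4 of the 6 clamp and loader genes were lower under cantharidin (median -1.38) and 2 under okadaic acid (median -0.31).

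The enzymes of Okazaki fragment maturation gave contrasting values. LIG1, the ligase that seals the fragments, gave 3484 units in control, 557 under cantharidin and 2104 under okadaic acid, or 5.68-fold and 1.98-fold lower. FEN1, the flap endonuclease that trims them, was the member closest to control under cantharidin, at 461, 419 and 602 units, with differences of -0.0012 with cantharidin and 0.13 with okadaic acid. RefSeq names a FEN1 pseudogene, and cross-hybridisation was not tested for it or for the 10 other members with named pseudogenes (ORC1, DBF4, PRIM2, POLD2, PCNA, RFC3, RFC5, RPA2, RPA3 and TIPIN).

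Of the 3 subunits of RPA, which coats single-stranded DNA at the fork, 2 were lower under cantharidin and 3 under okadaic acid. RPA1 gave 17683 units in control, 4469 under cantharidin and 6085 under okadaic acid, or 3.60-fold and 3.47-fold lower. RPA3 gave 54135, 7834 and 22593 units, or 6.28-fold and 2.86-fold lower. RPA2 gave 5397, 4155 and 3865 units, within 1.5-fold for cantharidin (-0.24) and 1.67-fold lower for okadaic acid. Its second probe gave -0.43 and -1.14, with the same calls. RPA1 had a second, dimmer probe that was lower under each agent, at -1.36 and -1.04.

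TIMELESS and TIPIN, whose proteins bind each other and protect the fork, moved apart. TIMELESS gave 9394 units in control, 584 under cantharidin and 1338 under okadaic acid, or 14.6-fold and 8.38-fold lower. TIPIN gave 711, 1416 and 2227 units, or 2.19-fold and 2.63-fold higher. The signals of CLSPN, which acts with this pair in the checkpoint, were 27.7, 7.45 and 23.1 units, and no fold is given for them.

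Set directly against cantharidin, okadaic acid left most replication genes with the higher signal. Of 42 members compared, 22 were at least 1.5-fold higher with okadaic acid, 3 were lower (MCM2, POLD2 and RFC1) and 17 were within 1.5-fold, with a median of 0.71. Of 16200 genes in all, 29.5% were higher and 22.3% lower, with a median of 0.13. Without scaling the members split into 30 higher and 2 lower and all genes into 47.1% and 13.9%. Under median scaling 24.2% of all genes were higher and 27.2% lower, with 21 and 5 of the members. This comparison does not use the control array. DBF4, MCM10, POLE2 and CLSPN were not well above background on either treated array.

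The widest gaps between the agents were found for GMNN (2.53 log2 units, or 5.79-fold higher with okadaic acid), PCNA (2.27, 4.81-fold) and POLD3 (2.04, 4.12-fold). Others past 3-fold were CDC7 (3.61-fold), ORC4 (3.45-fold) and ORC1 (3.18-fold). At the other end, POLD2 was 3.07-fold and RFC1 2.64-fold lower with okadaic acid. CDC45 and RPA1 differed by -0.06 and 0.05 log2 units and stayed within 1.5-fold in every setting. GINS1 and TIPIN differed by 0.40 and 0.26. They reached 0.80 and 0.65, past 1.5-fold, without scaling, where 47.1% of all genes were higher.

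**Figure D4:**
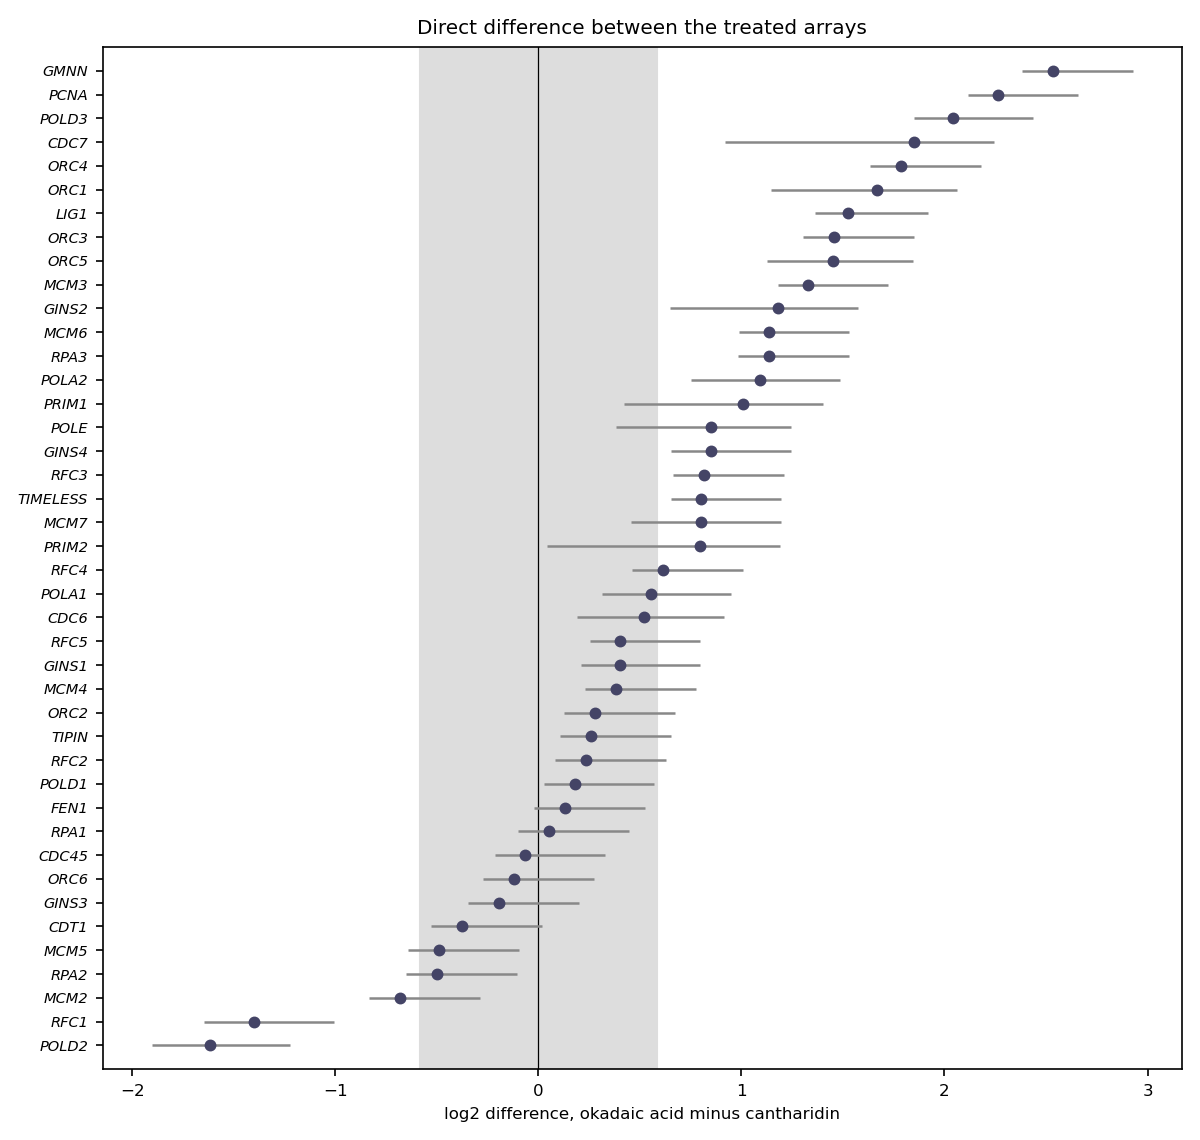
Log2 difference of okadaic acid minus cantharidin for the 42 members compared, sorted by size, with the band of 1.5-fold either way shaded. Points are the reported values and lines span the lowest and highest value over 12 processing settings, and GMNN, PCNA and POLD3 lie highest, while POLD2 and RFC1 lie left of the band with their whole line.

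A list of 40 further replication genes, among them accessory subunits, chromatin assembly and topoisomerase genes, had a smaller share of lower genes and a larger share of higher genes than the 46 members. Under cantharidin 20 were lower (50%, beside 34.1% of all genes) and 5 higher (12.5%, beside 27.5%), with a median of -0.62. Under okadaic acid 16 were lower (40.0%, beside 28.8%) and 11 higher (27.5%, beside 28.1%), with a median of -0.25. TOP2A, the topoisomerase that untangles replicated chromosomes, gave 1630 units in control, 29.9 under cantharidin and 125 under okadaic acid, or 49.6-fold and 15.6-fold lower. UHRF1, which guides maintenance methylation at the fork, gave 4366, 508 and 987 units, or 7.81-fold and 5.28-fold lower. The cantharidin signal of TOP2A was near the lowest that this array measured (21.9 units).

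Also much lower was WDHD1, a fork scaffold, under cantharidin (278 to 34.3 units, 7.37-fold lower, and 3.87-fold lower under okadaic acid). DSCC1, a subunit of an alternative clamp loader, was lower under okadaic acid (567 to 73.0 units, 9.27-fold lower). Under cantharidin DSCC1 was at least 23.5-fold lower and not well above background. Highest under cantharidin were PRIMPOL, a primase that restarts stalled forks, at 226 and 1248 units (6.08-fold), LRWD1, a binder of the origin recognition complex (2.48-fold), and DONSON, a factor in helicase assembly (2.06-fold). LRWD1 and DONSON were higher under okadaic acid as well (3.52-fold and 1.88-fold), while PRIMPOL was within 1.5-fold there (1.38-fold). With okadaic acid the highest were RNASEH2C of ribonuclease H2 (6.26-fold), MCM9, a helicase of recombination (5.45-fold), and RECQL4, a helicase that acts at origin firing (3.69-fold). RNASEH2C was also higher under cantharidin (1.87-fold), while MCM9 and RECQL4 were within 1.5-fold there.

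Against control, 2 of these genes passed 1.5-fold in opposite directions. MCMBP, a binding partner of MCM proteins, gave 9262 units in control, 3958 under cantharidin and 18448 under okadaic acid, with differences of -1.09 and 0.74. CHTF18, of the same alternative clamp loader as DSCC1, gave 1882, 1084 and 3504 units, with differences of -0.66 and 0.64. The direct comparison of okadaic acid with cantharidin gave 20 higher and 5 lower of 39, with a median of 0.71. Over all genes compared, 29.5% were higher and 22.3% lower, with a median of 0.13.

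**Figure D5:**
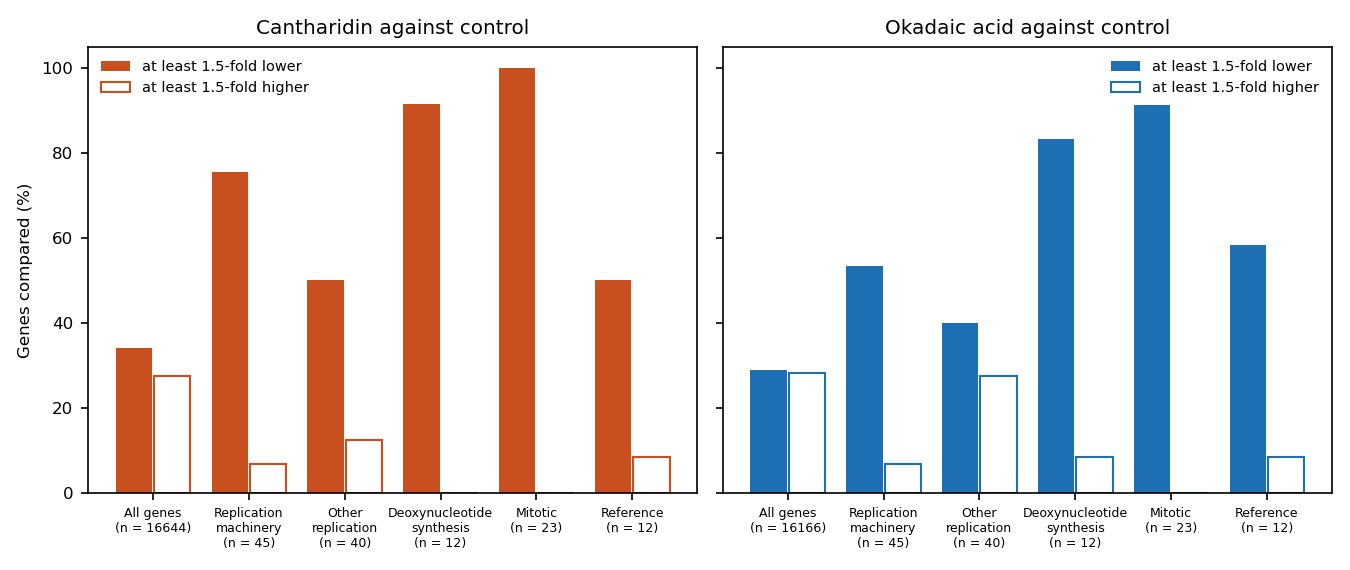
Share of genes (%) at least 1.5-fold lower (filled bars) and higher (open bars) than control under each agent, for all genes compared, the replication machinery and 4 other lists, with the number compared under each name. The replication machinery had 75.6% lower under cantharidin and 53.3% under okadaic acid (24 of 45, counting MCM10 at its measured dim signal), against 34.1% and 28.8% of all genes.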

How the data were processed

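Gene expression was measured on 3 Agilent 1-colour arrays, 1 each for control, cantharidin and okadaic acid, grouped by sample title. The authors deposited scanner output as spot intensity from Feature Extraction 11.0.1.1, which, per the file headers, was background-subtracted and detrended within each array and not scaled between arrays, with hg19 probe annotation. Deposited 0 or 1 flags mark outlier, saturated and well-above-background spots. The authors also deposited a normalized log2 table (30845 of the probes used are in it), whose normalization is not given in the sources used here.

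Here, log2 intensity was averaged over unflagged spots of a probe and the 75th percentile of the array subtracted, which left 34041 probes, with 23071 to 25103 well above background and none saturated. Accessions were matched to RefSeq GRCh38.p14 (25705 probes, 19699 genes), for names only, and a gene was represented by the brightest of its probes (mean log2 over the arrays). Where a signal was not well above background, the fold is a bound ("at least") taken from that signal or from the lowest one well above background on its array, whichever was higher. The 1.5-fold threshold is that of the study. With 1 array per group no test was made, and the number of arrays limits precision. All members are named. Of the 40 other replication genes, the 3 highest and 3 lowest per agent measured on both arrays are named. So are those past 1.5-fold in opposite directions, and POLD4, POLE3 and POLE4 as subunits of the member polymerases. The members and the lists were chosen with earlier results of these data known.

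Of 12 alternatives, 11 were set out at the start (background correction, 4 scalings, filters, floor, deposited table, threshold and probe choice) and 1, the median over spots, was added after the data were seen. The normexp correction (offset 50) used the median spot signal. Counting was tested on simulated data. Tools were limma 3.58.1 in R 4.3.3, and numpy 2.4.6, pandas 2.3.3 and matplotlib 3.10.9 in Python 3.11.15.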

Additional observations from a re-analysis of the deposited data

How the results depend on the processing

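No member with a call changed direction under the 12 alternatives. Apart from a 2-fold threshold, 33 of the 34 members lower under cantharidin kept that call in every setting (MCM10 did not), as did the 3 higher members and 6 of the 8 within 1.5-fold (not POLA1 and RFC2). Under okadaic acid 21 of 24 lower members did (not MCM10, POLE and RPA2) and the 3 higher ones, while CDC6, MCM7, ORC1, PCNA, POLA2 and POLD3 passed 1.5-fold in some settings. For okadaic acid against cantharidin 17 of 22 higher members did (not MCM7, POLE, PRIM1, PRIM2 and RFC4) and 2 of 3 lower ones (not MCM2), but only 7 of the 17 within 1.5-fold (not CDC6, GINS1, MCM4, MCM5, ORC2, POLA1, RFC2, RFC5, RPA2 and TIPIN). Normexp moved the cantharidin difference by more than 1.5-fold for DBF4, CDC7, GINS2, MCM10, PRIM1, POLE and POLE2, and the gap between the agents for CDC7 from 1.85 to 0.92. For PRIM2 the median over probes moved that gap from 0.80 to 0.04. At 2-fold, 33 members were lower and 3 higher under cantharidin, beside 22.3% and 20.1% of all genes. Under okadaic acid 18 were lower and 3 higher, beside 19.0% and 18.8%. In the direct comparison 15 were higher and 2 lower, beside 16.5% and 13.6%.

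The median of the members under cantharidin (-1.58) was -1.22 with normexp, -1.51 with the 75th percentile over probes measured on all arrays, and -1.72 without scaling. Under okadaic acid (-0.67) it was -0.48 with normexp, -0.79 with median scaling, -0.59 with the 75th percentile over probes measured on all arrays, -0.74 with quantile normalization, -0.41 without scaling, -0.56 with the filter on all 3 arrays and -0.85 in the deposited table. Without scaling, 6 members were higher under okadaic acid. Setting dim signals at the array floor gave -0.63 with 23 lower (beside 27.0% of all genes), and left the cantharidin median at -1.58. In the direct comparison (0.71) the median was 0.40 with normexp, 0.55 with median scaling (5 members lower), 1.1 without scaling, 0.78 with no filter and 0.54 with the median over probes. The cause of these shifts was not tested. Over the settings, the median of all genes moved from -0.30 to -0.09 under cantharidin, -0.11 to 0.26 under okadaic acid and -0.02 to 0.52 in the direct comparison.

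No paired analysis was possible because each group has 1 array. For the same reason no array was left out, and no value has a replicate check. Signal over background limits CDC6, DBF4, MCM10, POLE2 and CLSPN, and the PRIM1, CDC7 and POLE signals in treated cells lay near the floor.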

Other observations

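Genes of deoxynucleotide synthesis, which supply the building blocks of replication, were mostly lower. Of 12, 11 were lower and none higher under cantharidin (median -2.49), and 10 were lower and 1 higher under okadaic acid (median -2.06), beside 34.1% and 28.8% of all genes lower. SHMT1, which feeds thymidylate synthesis, had the lowest cantharidin value, at 1222 units in control and 33.8 under cantharidin (-5.04). RRM2, the small subunit of ribonucleotide reductase, gave 1539 units in control and 61.6 under cantharidin, and was not well above background under okadaic acid, where it was at least 31.6-fold lower. RRM2B, the p53-inducible form of the same subunit, gave 229, 183 and 632 units and had the highest values of the list (-0.18 and 1.21).

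Of 23 mitotic genes, all were at least 1.5-fold lower under cantharidin (median -3.11) and 21 under okadaic acid (median -2.46). Over all genes compared, 34.1% and 28.8% were lower. The lowest values were those of BUB1, a spindle checkpoint kinase, under cantharidin (-6.41) and AURKB, the kinase of the chromosomal passenger complex, under okadaic acid (-4.99). AURKA, the centrosome kinase, gave 2324, 590 and 2912 units and had the highest okadaic acid value (0.07).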
